A study of Mus musculus with 3 samples.

Results

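The macrophages described here were the cells with the most and the fewest transcripts of the MHC class II genes among sorted tumour-associated macrophages of 3 mice. Each mouse was of the strain FVB/N-Tg(MMTVPyVT)634Mul/J, in which the mouse mammary tumour virus promoter drives the polyoma middle T oncogene in the mammary epithelium, and gave 1 mammary adenocarcinoma of 750 mm3. Cells positive for CD45, CD11b and F4/80 and negative for Ly6G were profiled with a droplet 3' kit that counts unique molecular identifiers (UMIs). All 3 libraries belong to 1 untreated group, so the comparison lies between cells of the same tumour, with the mouse as the replicate. The labels give no age of the animals and no staining for MHC class II protein.

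Members were chosen from their own RNA. A barcode was kept with at least 500 genes, at most 15% mitochondrial UMIs, at least 3000 UMIs and at least 1 UMI of Adgre1, the gene of F4/80, which left 8077 of 10973 barcodes (554, 1787 and 5736 in mice 1, 2 and 3). Its score was the mean of ln(1 + UMIs per 10,000) over H2-Aa, H2-Ab1, H2-Eb1 and Cd74. In each mouse the highest 10% of cells by score formed the high set, the lowest 10% the low set, and the 10% around the median a middle set for reference. Each set held 55, 178 and 573 cells in mice 1, 2 and 3, or 806 in all, so the high and low sets together were 1612 cells.

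MHC class II molecules are pairs of an alpha and a beta chain that show peptides of engulfed proteins to CD4+ T cells. H2-Aa and H2-Ab1 encode the chains of I-A, H2-Eb1 the beta chain of I-E, and Cd74 the invariant chain that holds the groove until the endosome is reached. There H2-DM exchanges the remnant of the invariant chain for a peptide, and H2-O restrains H2-DM. Transcription of these genes depends on the coactivator CIITA, which binds no DNA itself and docks on a promoter module held by RFX, CREB and NF-Y. Macrophages of mammary tumours are commonly divided by their surface MHC class II.

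The promoters of the class II genes carry the X and Y boxes that RFX and NF-Y bind, and the sequences below show where these letters stand in members of the score and in genes tested against it. The motif searched was the X core AGCAAC followed after 20 to 40 bases by the Y core ATTGG, on both strands of RefSeq promoter windows of 300 bases (build GRCm38.p6). The pair stood in 111 of 32851 windows (0.338%), the Y core alone or with it in 37.4% and the X core in 14.8%. Capitals mark the cores, and each stretch of 65 bases is read along its gene.
H2-Eb1: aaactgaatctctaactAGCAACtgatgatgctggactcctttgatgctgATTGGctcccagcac
H2-Oa: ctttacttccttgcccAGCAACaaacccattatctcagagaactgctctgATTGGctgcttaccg
H2-Ob: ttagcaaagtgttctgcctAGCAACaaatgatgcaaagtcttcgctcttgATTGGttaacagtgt
H2-DMb1: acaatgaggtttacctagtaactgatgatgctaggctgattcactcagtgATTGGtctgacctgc
H2-DMb2: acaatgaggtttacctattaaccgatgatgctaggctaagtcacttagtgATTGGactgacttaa
H2-Aa: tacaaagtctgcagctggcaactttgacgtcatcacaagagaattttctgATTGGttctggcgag
These stretches lie at chr17:34305758-34305822 for H2-Eb1, chr17:34092286-34092350 for H2-Oa, chr17:34238798-34238862 for H2-Ob, chr17:34153080-34153144 for H2-DMb1, chr17:34145109-34145173 for H2-DMb2, all on the plus strand, and chr17:34287857-34287921 on the minus strand for H2-Aa. The cores of the pair were 27 bases apart in H2-Eb1, 28 in H2-Oa and 25 in H2-Ob. H2-Eb2, not printed here and with too few UMIs to test, held the pair as well, 27 bases apart. The windows of H2-Aa, H2-DMb1 and H2-DMb2 held the Y core without that X core. H2-DMa had 2 windows, of which 1 held neither core and 1 the Y core alone, 198 bases before the start. H2-Ab1, Cd74 and Ciita were not matched in the promoter table. A match of letters is a description and no evidence of binding.

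The genes of the score lie in the MHC of chromosome 17, apart from Cd74 on chromosome 18 (GENCODE M21, build mm10). H2-Ab1 spans chr17:34257689-34269419, H2-Aa chr17:34282744-34287823 and H2-Eb1 chr17:34305867-34316674. Their levels are given as UMIs per 10,000 UMIs of all genes, without a test, because they chose the cells. Cd74 stood at 482, 508 and 414 in the high sets of mice 1, 2 and 3, at 123, 194 and 131 in the middle sets and at 3.57, 8.61 and 4.20 in the low sets. H2-Ab1 stood at 168, 187 and 159, then 38.9, 68.0 and 47.7, then 0.688, 2.31 and 1.37. By ratio, typical macrophages of these tumours thus lay nearer to the high set than to the low set. H2-Aa stood at 165, 122 and 116, then 38.1, 47.1 and 34.7, then 0.415, 0.975 and 0.796. H2-Eb1 was the least abundant, at 4.29, 5.18 and 4.26, then 0.743, 1.67 and 0.849, then 0.0283, 0.0669 and 0.0428. The high to low ratio of H2-Aa was 397, 125 and 145 and that of Cd74 134.8, 59.1 and 98.6, so mouse 1 had the widest span for these genes.

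Low cells kept some class II transcripts. A UMI of Cd74 was found in 55 of 55, 178 of 178 and 535 of 573 low cells, and one of H2-Eb1 in 2, 15 and 26 of them. For a reference on free RNA, 29 barcodes with at least 3 UMIs of Epcam, Krt8 and Krt18 and none of Adgre1 had Cd74 at 0.831, 40.2 and 79.6 UMIs per 10,000 in mice 1, 2 and 3. In mice 2 and 3 that exceeded the level in the low macrophages, and these barcodes, with 2, 6 and 21 in the mice, were few. Their part in free or mixed RNA was not tested.

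**Figure D1:**
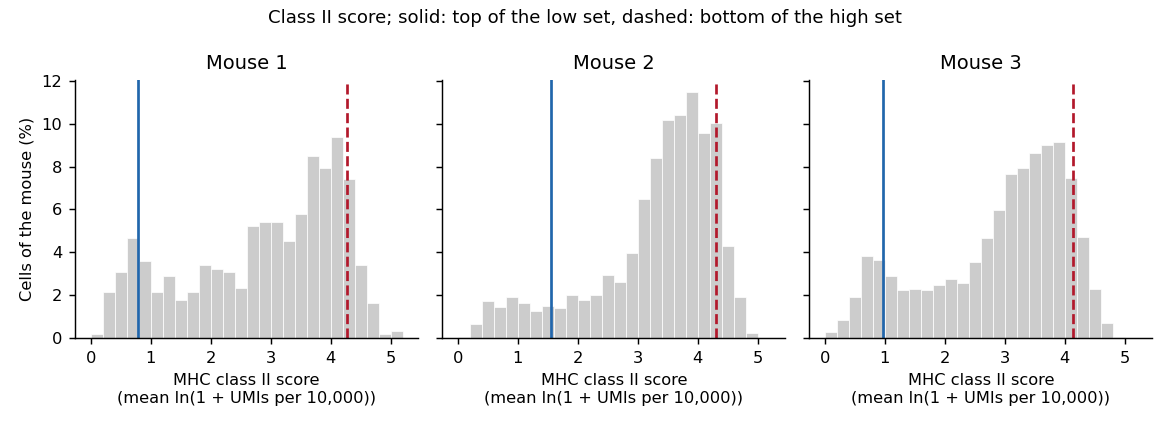
Share of the kept cells of each mouse (y axis, percent) by MHC class II score (x axis, in bins of 0.2). The solid line is the highest score in the low set (0.789, 1.55 and 0.967 in mice 1, 2 and 3) and the dashed line the lowest score in the high set (4.28, 4.31 and 4.14). Most cells lie in a broad hump near the upper line, and a long lower tail holds the low set.

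The sets are ranges of a score and not cell types. The score had medians of 3.18, 3.56 and 3.2, and in the distribution of scores by mouse no gap parts the high set from the cells below it. The lowest high cell scored 4.280 in mouse 1 and the highest cell outside 4.278, and the corresponding pair at the low limit was 0.789 and 0.799. Within 0.1 of the high limit stood 38.2%, 37.1% and 34.6% of the high cells, with 22, 108 and 207 cells just outside. At the low limit these shares were 32.7%, 10.1% and 19.0%, with 8, 14 and 94 cells outside. When the UMIs of each cell were split at random into 2 parts and scored apart, 63.6%, 57.9% and 62.5% of the cells high in one part were high in the other, 69.1%, 91.0% and 73.8% of the low cells were low in both, and 0 cells moved from high to low. Mice 2 and 3 shared 8 barcode sequences, 1 of them among high or low cells, and the other pairs of mice shared 0.

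The sets differed in depth. Median UMIs per cell were 14023, 10037 and 7518 in the high sets, 18192, 23470 and 12128 in the middle sets and 16729, 16483 and 10300 in the low sets, so high cells had fewer UMIs in every mouse. Median mitochondrial shares were 4.27% ± 0.168 in high and 4.59% ± 0.269 in low cells (mean ± SD, n = 3 mice), and ribosomal protein genes took 12.8% ± 1.71 and 12.9% ± 1.16. Adgre1 gave 3.43 ± 0.263 and 3.31 ± 0.581 UMIs per 10,000. The ribosomal and Adgre1 values differed between high and low cells by less than the spread of the mice, while depth was lower in the high set of each mouse. The 4 score genes with Adgre1 took 8.19%, 8.23% and 6.93% of the UMIs of the high sets against 0.0470%, 0.120% and 0.0642% of the low sets.

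For the genes outside the score, UMIs were summed per mouse and set, and edgeR's quasi-likelihood test with the mouse as a term compared the 3 sets. Levels of these genes are CPM, the UMIs of a gene scaled to 1000000 UMIs, those of the score genes and Adgre1 left out of the total. Fold changes are log2 values ± SE after TMM scaling, which took the high sets as smaller libraries (factors of 0.886 to 0.902, against 1.03 to 1.11 in the low sets), so a fold change lies above the ratio of the CPM values. Between high and low sets 2465 of 9700 genes passed an adjusted p of 0.05 (25.4%), 1439 higher in the high set (14.8%) and 1026 lower (10.6%). The median log2 change of all genes was -0.03. With library sizes alone, an alternative chosen after the data were seen, it was -0.29, and 804 genes were higher and 2762 lower. The balance of higher and lower genes therefore depends on the scaling, and directions below hold relative to the bulk of genes.

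High and middle sets differed in 972 genes (10.0%), with 700 higher (7.22%) and 272 lower (2.80%) in the high set. Middle and low sets differed in 589 (6.07%), with 434 higher (4.47%) and 155 lower (1.60%) in the middle set. When the 3 sets were instead taken within 5 classes of cells of like depth, these counts were 223 and 204, and the high and low sets differed in 1905 genes. The high and low comparison shares its sums with both others.

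The peptide-loading machinery of class II followed the score. All 5 tested members of the list (H2-DMa, H2-DMb1, H2-DMb2, H2-Oa and H2-Ob) were higher in the high set, with a median log2 change of 3.25 against -0.03 over all genes. Wherever a list below has 0 genes lower in the high set by edgeR, 0 were also lower at an unadjusted p under 0.05 and by DESeq2, apart from the inflammatory list, where these counts were 2 and 1. H2-DMb1, which encodes the beta chain of H2-DM (chr17:34153072-34160230), stood at 1054.8, 1022.8 and 974 CPM in the high sets of mice 1, 2 and 3, at 329, 604 and 372 in the middle sets and at 53.8, 88.4 and 83.6 in the low sets. The 3 sets did not overlap, and the mice of the high set were within a narrow range. The log2 change from low to high was 4.0 ± 0.21 (edgeR, adjusted p = 8.1e-06), with 1.49 from middle to high and 2.51 from low to middle, both passing. H2-DMa, the alpha chain (chr17:34119541-34139101), stood at 750, 902 and 789 CPM against 99.1, 128 and 113 in the low sets, a log2 change of 3.11 ± 0.12 (adjusted p = 2.3e-11). H2-DMb2, a close copy of H2-DMb1 with which reads may be shared, changed by 3.25 ± 0.29.

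H2-O was scarcer than H2-DM. H2-Ob, its beta chain (chr17:34238903-34254414), stood at 27.8, 29.9 and 25.4 CPM in the high, 7.59, 11.3 and 9.45 in the middle and 1.89, 2.55 and 3.17 in the low sets. These levels did not overlap, and the log2 change of 3.52 ± 0.25 (adjusted p = 1.3e-08) resembled that of H2-DM in size. H2-Oa, the alpha chain (chr17:34092340-34095234), had 2, 22 and 28 UMIs in the high and 0, 3 and 9 in the low sets, for a change of 2.96 ± 0.57 (adjusted p = 8.9e-04). H2-Eb2 had 3 UMIs in the 3 high sets and was too low to test.

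Ciita was the one regulator on the list that passed. Its 9 tested members had 1 gene higher and 0 lower in the high set, with a median of 0.05. Ciita (chr16:10480059-10528418) stood at 48.7, 78.9 and 51.1 CPM in the high sets of mice 1, 2 and 3 and at 28.1, 53.1 and 18.5 in the middle sets. In the low sets it had 0 UMIs in mice 1 and 3 and 10 UMIs, or 3.19 CPM, in mouse 2. A count of 0 allows up to 2.83 CPM in mouse 1 and 0.476 CPM in mouse 3 (3 counts, counting error alone), so the low sets stood below the high sets in every mouse. The fitted log2 change was 6.20 ± 0.51 (edgeR, adjusted p = 7.9e-05), and 10.85 without mouse 2, where the low sums were both 0. From middle to high it changed by 1.23 (adjusted p = 0.035) and from low to middle by 4.97 (adjusted p = 0.0024). By DESeq2 0 genes of the list, Ciita included, passed from middle to high.

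The DNA-bound partners of CIITA differed less. Rfx5, the subunit of RFX that contacts the X box, stood at 8.35, 8.46 and 5.30 CPM in the high and 7.55, 6.07 and 2.70 in the low sets (log2 0.88 ± 0.33, adjusted p = 0.059). Each mouse was higher in its high set, while the values of the sets overlapped between mice. The change missed the threshold and passed it under 4 of the 21 alternatives in which Rfx5 was tested. Rfxap and Rfxank, the other subunits of RFX, had log2 changes of 0.05 ± 0.17 and -0.01 ± 0.25. Nfya, Nfyb and Nfyc of NF-Y had 0.22 ± 0.18, -0.01 ± 0.25 and -0.23 ± 0.24, and Creb1 0.27 ± 0.15. March1, whose ubiquitin ligase removes class II from the surface, had -0.09 ± 0.15, with 23.7, 34.4 and 23.2 CPM against 28.3, 44.0 and 30.3. None of these 8 genes passed the edgeR or DESeq2 test in this comparison, and 1 of them, Rfx5, had an unadjusted p under 0.05.

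**Figure D2:**
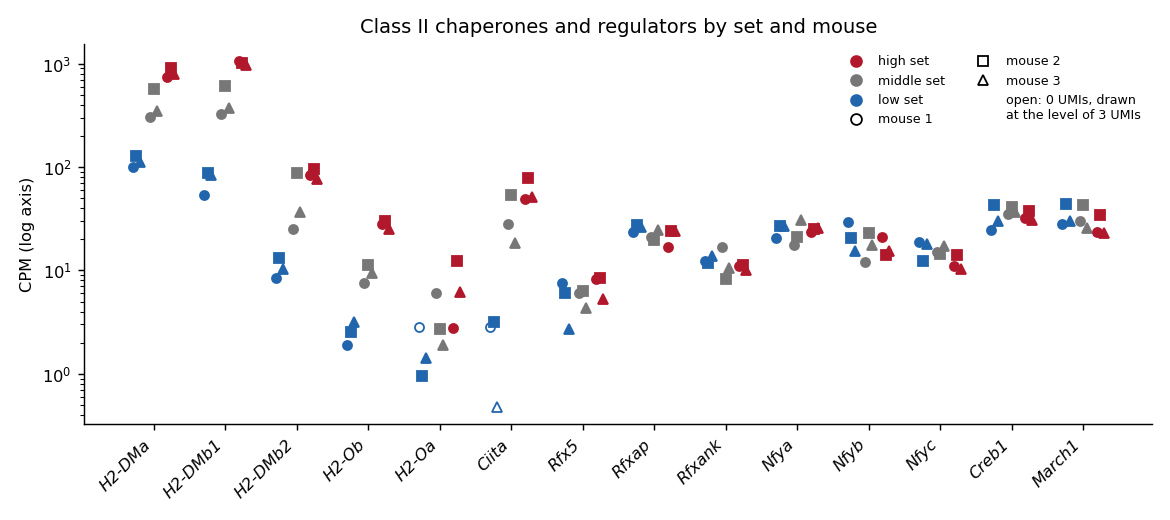
CPM on a log axis of the class II peptide-loading genes and regulators, with 1 point for each mouse (circle, square, triangle) in the low (blue), middle (grey) and high (red) set, and open symbols for 0 UMIs drawn at the level of 3 UMIs. H2-DMa, H2-DMb1, H2-Ob and Ciita have all high points above all low points, and for Rfx5 to March1 the points of the sets lie close together.

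Ciita and H2-DMb1 also differed across the whole range of the score. In deciles of the cells from lowest to highest, mean CPM over the mice was 1.06, 4.57, 10.9, 20.5, 27.1, 37.1, 42.5, 49.7, 64.8 and 59.6 for Ciita. H2-DMb1 went from 75.3 in the lowest decile over 395 in the fifth to 1017 in the highest. Ciita thus had its steepest relative steps among the lowest deciles, and its mean in the highest decile was not above that in the ninth. A UMI of Ciita was found in 20 of 55, 88 of 178 and 158 of 573 high cells and in 0, 8 and 0 low cells. After thinning every cell to 3000 UMIs the shares of high cells were 9.09%, 14.0% and 11.7%.

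Proteases of the endosome did not move as 1 group. Of 9 tested genes of antigen processing 4 were higher and 2 lower in the high set, with a median of 0.23 (-0.03 with library sizes alone, where 3 were higher and 3 lower). Ctss, the cathepsin that trims the invariant chain, stood at 5496.7, 5149.9 and 6775.8 CPM in the high and 3395.1, 3505.5 and 4577.5 in the low sets (log2 0.86 ± 0.06, adjusted p = 1.4e-08). Its inhibitor Cst3, cystatin C, stood at 9111.9, 11221.1 and 11334.2 against 4339.4, 5550.1 and 5814.5 (1.27 ± 0.06, adjusted p = 2.3e-11). Neither gene overlapped between the sets, and Ctsh was higher too, by 0.80 ± 0.08. Ctsd, the aspartic protease of lysosomes, went the other way, with 793, 772 and 1610.8 CPM in the high, 1921.6, 1823.2 and 3202.1 in the middle and 3099.9, 3574.1 and 5108.4 in the low sets. Its log2 change was -1.69 ± 0.08 (adjusted p = 1.1e-10), and Ctsb was lower by a smaller amount, with -0.40 ± 0.07. Ctsz passed at 0.23 ± 0.07 and was at -0.03 with library sizes alone. Lgmn, Ctsl and Sppl2a did not pass.

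MHC class I genes were higher as well, by less. Of 23 genes of class I and its peptide supply 15 were higher and 0 lower in the high set, with a median of 0.59, and with library sizes alone 10 were higher and 3 lower. H2-T23, which encodes the non-classical molecule Qa-1, led them with 178, 271 and 176 CPM in the high, 132, 129 and 80.7 in the middle and 58.5, 64.8 and 46.8 in the low sets (log2 2.16 ± 0.13, adjusted p = 1.8e-09). High and low sets did not overlap for this gene. H2-Q6 and H2-Q7, whose near-identical sequences may share reads, changed by 1.09 ± 0.17 and 1.01 ± 0.11, and Tap2, a chain of the peptide transporter, by 0.78 ± 0.15. H2-K1, B2m and the immunoproteasome gene Psmb8 passed with 0.65, 0.42 and 0.58. Reads of FVB/N animals were counted on the mm10 build, which comes from another strain, and how that affects counts of the polymorphic H2 genes was not tested.

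Genes for contact with T cells formed the next group. Of 17 tested costimulatory and checkpoint genes 13 were higher and 0 lower, with a median of 0.94, and with library sizes alone 11 were higher and 1 lower. Slamf7, a homotypic receptor of leukocytes, stood at 111, 180 and 70.5 CPM in the high, 19.7, 66.5 and 28.2 in the middle and 23.6, 27.1 and 8.89 in the low sets (log2 3.02 ± 0.24, adjusted p = 6.2e-06). Cd86, a ligand of CD28, stood at 452, 615 and 428 CPM in the high and 189, 225 and 201 in the low sets (1.52 ± 0.10). Every high value of these genes exceeded every low value. Cd40 changed by 1.64 ± 0.14, Cd72 by 1.80 ± 0.13, Slamf8 by 2.23 ± 0.23 and Cd80, the other ligand of CD28, by 1.57 ± 0.20. Cd274, which encodes the inhibitory ligand PD-L1, was higher by 1.59 ± 0.25, with 8.35, 32.1 and 14.6 CPM against 9.43, 9.90 and 5.71, and mouse 1 showed no such difference in CPM. Costimulatory and inhibitory genes were thus both higher in the high cells.

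Interferon-response genes were in part higher. The interferon-gamma list had 12 of 22 tested genes higher and 0 lower, with a median of 0.65, and the type I list 9 of 19 higher and 0 lower, with a median of 0.91. With library sizes alone these counts of higher genes were 9 and 5. The type I list had 5 higher genes within classes of like depth, 4 between the 20% ends of the score, with a median of 0.34, and 3 with sets and tests on separate UMIs, with a median of 0.51. Gbp3, a guanylate-binding protein, stood at 33.4, 69.9 and 48.0 CPM in the high and 11.3, 32.2 and 27.3 in the low sets (log2 1.28 ± 0.15, adjusted p = 6.4e-06). Each mouse was higher in its high set. Irf1, a transcription factor of the response, changed by 0.97 ± 0.18, the kinase gene Jak2 by 1.15 ± 0.17 and the receptor genes Ifngr1 and Ifngr2 by 0.69 and 0.60. Cxcl9, chosen for mention after its values were seen, had 0, 69.9 and 10.8 CPM in the high and 0, 0 and 1.11 in the low sets, and in mouse 2 the 5 leading cells held 92.7% of its UMIs in the high set. Isg15, a ubiquitin-like protein of the type I response, stood at 195, 153 and 151 against 114, 41.2 and 51.4 (1.69 ± 0.34, adjusted p = 0.024), and its adjusted p rose to 0.226 without mouse 3. It missed the threshold under 8 of 24 alternatives. Ifih1, a sensor of double-stranded RNA, changed by 1.32 ± 0.18 (adjusted p = 2.1e-05). Ccl5, a chemokine, changed by 1.92 ± 0.47 (adjusted p = 0.044), and its adjusted p was 0.194 without mouse 1, while its change was 1.06 without mouse 3. It missed the threshold under 12 of 24 alternatives.

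Inflammatory genes of the interleukin-1 axis were higher in the high set. Of 23 genes of cytokines and their feedback 13 were higher and 0 lower, with a median of 0.85, and with library sizes alone 13 were higher and 2 lower. Il1b stood at 11300.8, 9922.6 and 5900.0 CPM in the high, 5282.2, 5871.9 and 3963.5 in the middle and 2812.1, 3876.4 and 2274.1 in the low sets (log2 1.84 ± 0.12, adjusted p = 2.4e-05). Il1rn, which encodes the antagonist of the IL-1 receptor, stood at 1360.9, 1331.7 and 832 against 558, 481 and 282 (1.70 ± 0.09, adjusted p = 3.6e-10). The cytokine and its antagonist were both higher in each mouse. The decoy receptor gene Il1r2 stood at 285, 55.2 and 60.1 against 1.89, 4.15 and 8.09 (4.06 ± 0.82, adjusted p = 0.031), with adjusted p of 0.152 without mouse 2 and 0.172 without mouse 3. Nlrp3, the sensor that leads to IL-1 beta processing, changed by 1.23 ± 0.10, Cxcl1 by 1.29 ± 0.09 and Cxcl2 by 1.46 ± 0.20. The neutrophil chemokine Cxcl2 had an adjusted p of 0.0061, and 0.0593 without mouse 3. The chemokine genes Ccl2, Ccl7 and Ccl8 had log2 changes of -0.47, -0.41 and -1.67 and did not pass. Ptgs2 passed at 1.47 ± 0.35 (adjusted p = 0.044), with adjusted p of 0.24 without mouse 2 and 0.227 without mouse 3, and missed the threshold under 14 of 24 alternatives.

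Immediate-early and heat-shock genes, which rise when tissue is dissociated, moved in the same direction. Of 20 such genes 12 were higher and 0 lower in the high set, with a median of 0.55, and with library sizes alone 9 were higher and 1 lower. Hspa1b stood at 470, 230 and 186 CPM against 199, 160 and 109 (log2 1.09 ± 0.13), though the call was lost under 10 of 24 alternatives, and Hspa1a, its near-identical neighbour, did not pass at 1.10. Fosb changed by 0.84 ± 0.09 and Dusp1 by 0.94 ± 0.15. Between middle and low sets 10 of the 20 were higher in the middle set, and between high and middle sets 2 were higher and 1 lower in the high set. The part of dissociation in the inflammatory genes was not tested.

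**Figure D3:**
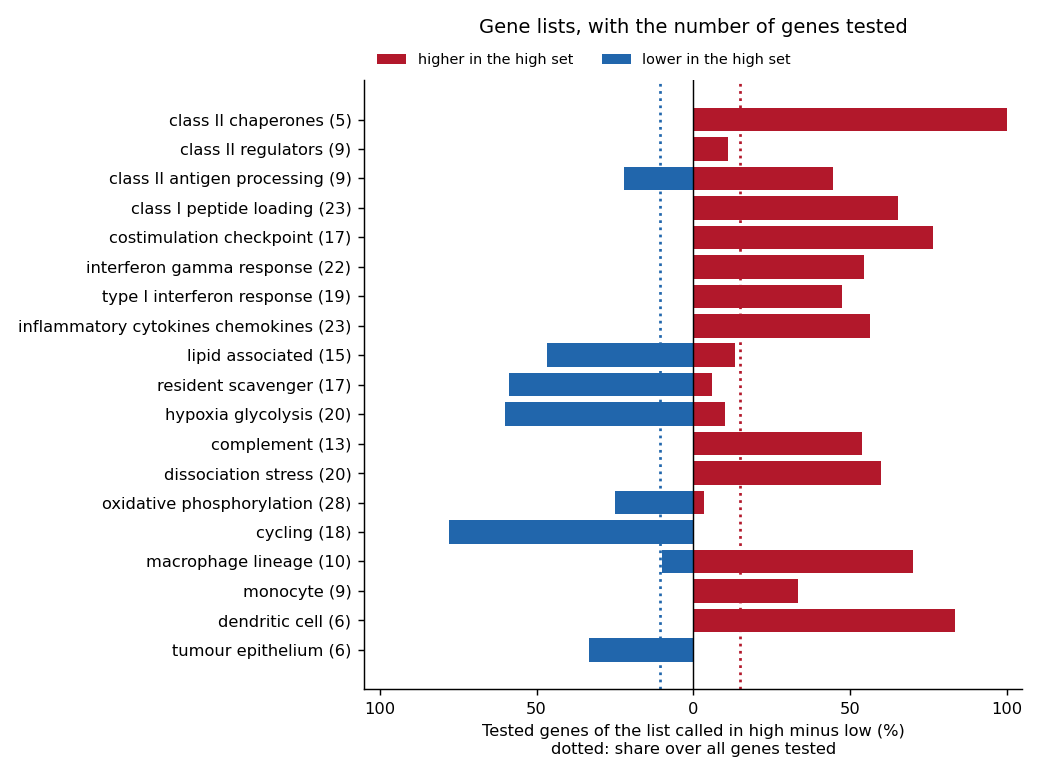
Share of the tested genes of each list (y axis, number tested in brackets, lists with at least 5) that were higher (red, to the right) or lower (blue, to the left) in the high than in the low set, in percent. Dotted lines mark the shares over all 9700 genes, 14.8% higher and 10.6% lower. Bars for class II chaperones, costimulation and dendritic cell genes extend to the right, and those for cycling, glycolysis and resident genes to the left.

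Genes of tissue-resident, scavenging macrophages were lower in the high set. Of 17 tested genes 10 were lower and 1 higher, with a median of -1.29. Lyve1, the hyaluronan receptor of a perivascular macrophage subset (chr7:110850607-110863239), had 0, 0 and 17 UMIs in the high sets of mice 1, 2 and 3, or 3.76 CPM in mouse 3. In the middle sets it stood at 9.87, 13.4 and 32.2 CPM and in the low sets at 18.9, 40.2 and 62.4. The high sets lay below the low sets in every mouse, with a log2 change of -4.26 ± 0.33 (adjusted p = 6.2e-08) that was -9.21 without mouse 3, where both high sums are 0. Cbr2, a carbonyl reductase that marks resident macrophages, stood at 37.6, 18.6 and 39.1 in the high, 134, 116 and 189 in the middle and 210, 101 and 213 in the low sets. The drop lay on the side of the high set, with -2.06 from middle to high (adjusted p = 9.3e-07) and -0.14 from low to middle (adjusted p = 0.56), though the steps were not tested against each other.

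Other members followed Cbr2. Igf1, the growth factor, had 0, 2.82 and 5.53 CPM in the high, 37.2, 35.8 and 20.1 in the middle and 30.2, 26.2 and 25.4 in the low sets (high to low -2.34 ± 0.41, adjusted p = 0.0021). Folr2, a folate receptor of resident macrophages, stood at 41.8, 37.8 and 46.6 against 347, 134 and 219 (-2.08 ± 0.31, adjusted p = 0.0067, and 0.0671 without mouse 3). Stab1, a scavenger receptor, was lower by -1.11 ± 0.10 and Gas6, a ligand of Mertk, by -1.52 ± 0.14. Mrc1, which encodes CD206, did not pass, at -0.28.

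Over the deciles of the score Cbr2 stood at 175, 138, 143, 149, 149, 126, 118, 70.0, 52.5 and 31.8 mean CPM. Its level varied little over the lower deciles and dropped over the last few. Lyve1 went from 40.5 in the lowest decile to 11.6 in the seventh, 4.45 in the eighth and 1.25 in the highest. The summed level of the list per cell spread most in the low sets. The median low cell had 82.4, 28.0 and 36.0 UMIs per 10,000 of the resident list in mice 1, 2 and 3 against 27.0, 26.2 and 26.7 in the median high cell, and the 90th percentile was 185, 154 and 166 against 60.5, 61.6 and 63.3. In mouse 2 the medians were close while the upper tails were apart.

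Lipid-handling genes split. Of 15 tested genes 7 were lower and 2 higher, with a median of -0.41. Apoe, the most abundant of them, stood at 33792.6, 48197.5 and 48774.5 CPM in the high and 26518.7, 34624.0 and 35385.2 in the low sets (log2 0.69 ± 0.08, adjusted p = 6.9e-04). It was higher in each mouse, with a smaller change of 0.43 with library sizes alone, 0.35 within classes of like depth and 0.34 with cycling cells left out. Fabp5, a fatty acid carrier, stood at 242, 154 and 269 in the high, 677, 382 and 586 in the middle and 1033.9, 484 and 945 in the low sets (-1.58 ± 0.10, adjusted p = 3.9e-09). Syngr1 was lower by -1.94 ± 0.17, Cd36, a scavenger receptor for lipids, by -1.37 ± 0.25 and Lgals3, galectin-3, by -0.58 ± 0.09. The calls of Cd36 and Lgals3 were each lost under 6 of 24 alternatives, and Cd36 was at -0.46 (adjusted p = 0.372) within classes of like depth. Gpnmb, chosen for mention after its values were seen, had 1.39, 0 and 0.221 CPM in the high and 25.5, 15 and 5.24 in the low sets (-4.75 ± 0.59). Spp1, osteopontin, stood at 1494.5, 288 and 1368.3 against 3982.8, 908 and 3064.2 and did not pass (-1.15 ± 0.33, adjusted p = 0.078), though each mouse was lower in its high set.

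Glycolytic genes were lower in the high set and higher in the low set. Of 20 tested genes of hypoxia and glycolysis 12 were lower and 2 higher, with a median of -0.71. Tpi1, triosephosphate isomerase, stood at 266, 118 and 191 CPM in the high, 284, 206 and 283 in the middle and 672, 325 and 428 in the low sets (log2 -1.06 ± 0.12, adjusted p = 7.1e-06). From middle to high it changed by -0.28 (adjusted p = 0.18) and from low to middle by -0.78 (adjusted p = 9.3e-04). Over the list, 11 genes were lower in the middle than in the low set and 3 lower in the high than in the middle set. The shares over all genes were 1.60% and 2.80%. Most of these calls thus separate low cells from typical ones, though the steps were not tested against each other. Gapdh, Pgk1, Pkm and Ldha were lower in high than in low sets by -0.94, -1.07, -0.95 and -0.58. Bnip3, a hypoxia-induced mitophagy receptor, changed by -1.27 ± 0.24. Vegfa, the angiogenic factor and a target of the same response, went the other way by 0.95 ± 0.16, with 160, 161 and 145 CPM against 150, 74.7 and 87.1, and Hk2, hexokinase, by 0.67 ± 0.15. The list therefore held calls in both directions.

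Arg1, arginase 1, rested on few cells. It stood at 1.39, 0.564 and 3.10 CPM in the high and 481, 12.8 and 61.2 in the low sets (log2 -5.18 ± 1.01, adjusted p = 0.028), and its adjusted p was 0.202 without mouse 2. In the low set of mouse 1, 15 of 55 cells had a UMI and 5 cells held 93.1% of its 510 UMIs. In mice 2 and 3, 8 of 178 and 35 of 573 low cells had a UMI, so most low cells showed none. Arg1 missed the threshold under 4 of 24 alternatives.

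**Figure D4:**
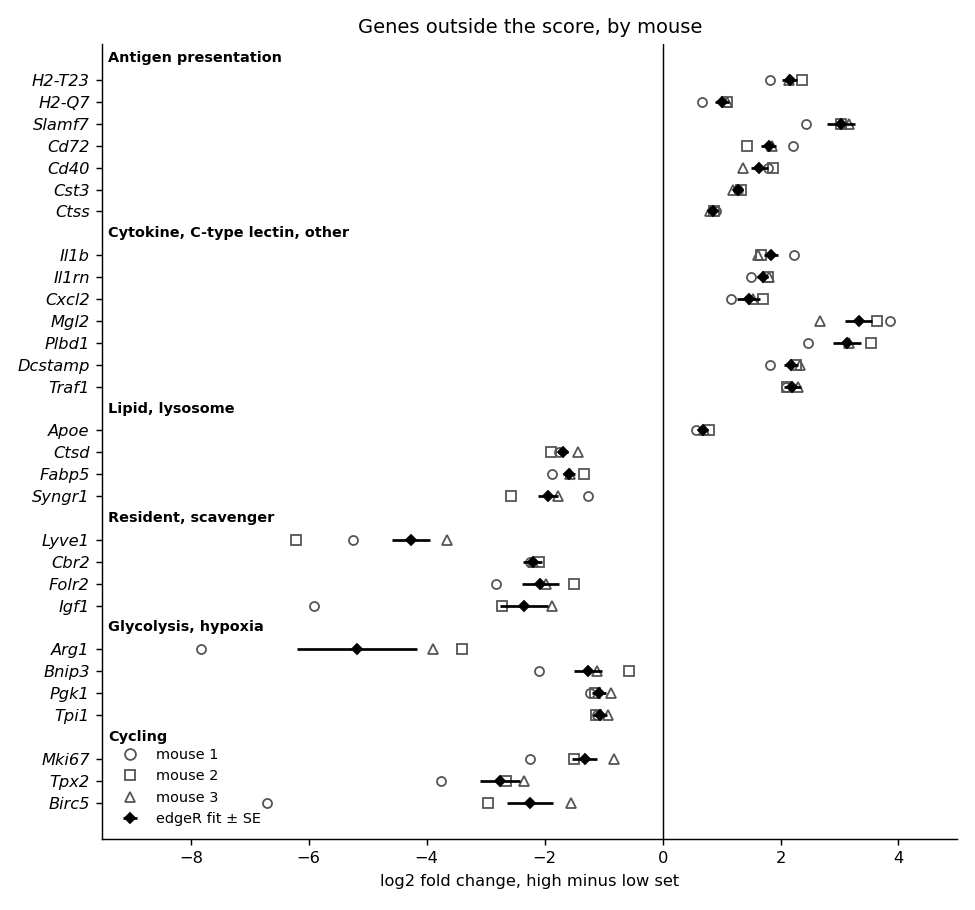
Log2 change from the low to the high set (x axis) for genes outside the score, grouped by function. Open symbols are single mice, filled diamonds the edgeR fit with its SE. All open symbols of a gene lie on 1 side of 0, which the rule for naming genes required of all of them but Mki67. Lyve1, Igf1, Arg1 and Birc5 have the widest spread between mice.

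Genes of the cell cycle were lower in the high set. Of 18 tested genes 14 were lower and 0 higher, with a median of -2.11, and their summed level was 134, 231 and 326 CPM in the high, 472, 757 and 744 in the middle and 815, 1356 and 805.5 in the low sets. Mki67, which encodes Ki-67, stood at 16.7, 80.1 and 42.7 CPM in the high and 94.3, 285 and 89.3 in the low sets (log2 -1.32 ± 0.21, adjusted p = 0.0011). Tpx2, a spindle protein, changed by -2.76 ± 0.35, Mcm6, a subunit of the replicative helicase, by -2.27 ± 0.37 and Birc5, survivin, by -2.25 ± 0.39. Between middle and low sets 0 of the 18 passed by edgeR and 0 by DESeq2, 4 were lower in the middle set at an unadjusted p under 0.05, and between high and middle sets 7 were lower in the high set. Top2a missed the threshold at -2.12 ± 0.55 (adjusted p = 0.057), and passed under 10 of the 23 alternatives in which it was tested, among them DESeq2 (adjusted p = 0.000154).

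In both tools 0 of the 18 were higher in the high set. With cells of at least 5 UMIs of the cycling list left out and sets drawn anew, 5 of these genes could be tested and 1 passed: Mki67, now at 1.06 (adjusted p = 0.0419). That limit counted UMIs of this same list, Mki67 included, and high cells of the main sets had fewer UMIs in all. The direction of Mki67 thus differed between the main sets and these, and the part of the limit and of depth in this was not tested. With these cells left out 1537 of 7995 genes passed, 1022 higher and 515 lower in the high set. The class II chaperones were higher for 4 of 4 tested genes, the resident list had 12 of 17 lower and the costimulatory list 12 of 16 higher. These groups of genes thus differed between high and low cells that were not cycling by this limit.

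States of single cells were compared after thinning each to 3000 UMIs, because the sets differed in depth. At least 3 UMIs of the cycling list were found in 3.58% ± 2.25 of the high cells, 18.3% ± 3.46 of the middle cells and 18.4% ± 6.37 of the low cells (mean ± SD, n = 3 mice). A UMI of Lyve1 was found in 0.233% ± 0.403, 3.0% ± 1.28 and 5.53% ± 3.28 of them, and one of Arg1 in 0.116% ± 0.202, 2.03% ± 1.85 and 6.39% ± 5.58. None of these 3 marks was found in 70.2% ± 3.87 of the low cells and 96.1% ± 2.84 of the high cells. Before thinning, the low and high shares with none were 39.5% ± 11.1 and 76.5% ± 4.07. The 29 epithelial barcodes, with a median of 8633 UMIs before thinning, had Lyve1 in 3.45%, Arg1 in 13.8% and 3 cycling UMIs in 24.1% after it. The shares for low cells lay below those of these barcodes for Arg1 and cycling and above them for Lyve1. In mice 2 and 3 these barcodes had more Cd74 than the low macrophages, so they set no level of free RNA. How much of the marks in low cells is free or mixed RNA was not tested, and the shares are not read as expression in single cells.

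Macrophage identity was shared by the sets. Csf1r, the receptor of the lineage growth factor, stood at 842, 810 and 758 CPM in the high and 742, 678 and 676 in the low sets (log2 0.46 ± 0.08), and C1qa, a subunit of complement C1q, at 6210.5, 7995.5 and 8288.2 against 4964.9, 7589.0 and 7584.8 (0.43 ± 0.06). Of 10 lineage genes 7 were higher and 1 lower in the high set, against 14.8% and 10.6% of all genes. With library sizes alone 3 were higher and 3 lower, beside 804 and 2762 of all 9700 genes. The counts for this list therefore depend on the scaling. Mertk, a receptor for dying cells, was the lower one after TMM scaling, at -0.44 ± 0.14, and missed the threshold under 10 of 24 alternatives. The complement list had 7 of 13 higher and 0 lower, or 4 and 1 with library sizes alone. Itgax, which encodes CD11c, was higher by 1.05 ± 0.17. Of 28 genes of oxidative phosphorylation 7 were lower and 1 higher, with a median of -0.17. The higher one, Uqcrh, changed by 0.49 ± 0.09 and lost its call under 2 of 24 alternatives. Among the lower ones Ndufb8, Cox5a and Atp5g3 each lost theirs under 10. With library sizes alone 25 of the list were lower, in a setting where 2762 of all 9700 genes were. The number of lower genes was 3 by DESeq2 and 1 with cycling cells left out. It was 0 by edgeR within classes of like depth (1 at an unadjusted p under 0.05), where the median was -0.05, and 0 without mouse 2 (5 at an unadjusted p under 0.05).

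Genes of dendritic cells were higher in the high set. Of 6 tested genes 5 were higher, with a median of 3.52, and the summed level of all 15 list genes was 185, 490 and 379 CPM in the high, 56.2, 183 and 91.2 in the middle and 22.6, 54.0 and 64.1 in the low sets. The defining genes of the lineage were near 0: Flt3 had 0, 1.69 and 0.442 CPM and Zbtb46 2.78, 1.69 and 0.442 in the high sets, and neither could be tested. Cd207, langerin, stood at 40.4, 309 and 296 against 2.83, 21.7 and 33.3 (log2 3.62 ± 0.48, adjusted p = 0.0081, and 0.0586 without mouse 1). Ccr7, the homing receptor of mature dendritic cells, stood at 76.5, 29.3 and 18.6 against 0, 6.07 and 1.75 (3.60 ± 0.58, adjusted p = 0.0049, and 0.0654 without mouse 3). In mouse 1, 7 of 55 high cells had a Ccr7 UMI and 5 of them held 96.4% of its UMIs. Ccl22, a chemokine, and Siglech changed by 3.44 ± 0.31 and 3.92 ± 0.35.

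Markers of other lineages gave fewer calls. Monocyte genes had 3 of 9 tested genes higher, among them Ms4a4c by 1.30 ± 0.13. Ccr2, the receptor of recruited monocytes, stood at 292, 220 and 146 CPM in the high and 316, 55.5 and 56.6 in the low sets (1.28 ± 0.53, adjusted p = 0.18), so mice 2 and 3 were higher in the high set in CPM and mouse 1 was not. Without mouse 1 Ccr2 passed, at 1.91 (adjusted p = 0.00125), and it passed under 3 of 24 alternatives in all. Of the lymphocyte lists Ighm was higher by 1.11 ± 0.13 and Cd2 by 2.24 ± 0.64, while Cd79a and Cd3e had no UMI in any of the sums. Csf3r, the only 1 of 8 genes of the neutrophil list that was tested, was higher by 0.51 ± 0.16, with the call lost under 10 of 24 alternatives. The summed neutrophil list stood at 44.5, 29.3 and 32.05 CPM in the high and 67.0, 25.9 and 29.8 in the low sets of mice 1, 2 and 3, so mouse 1 went the other way. No mast cell or eosinophil gene was high enough to test. Wfdc18, a secreted protein of the tumour epithelium, stood at 11.1, 11.3 and 20.6 in the high, 15.9, 22.7 and 21.8 in the middle and 27.4, 77.6 and 85.4 in the low sets (-1.89 ± 0.20, adjusted p = 2.8e-06). The epithelial list summed to 47.3, 45.1 and 67.9 CPM in the high and 67.9, 124.5 and 193 in the low sets, with 2 of 6 tested genes lower in the high set, whereas Epcam itself did not pass at -0.37 ± 0.33.

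When cells with at least 2 UMIs of any of these other lists, the monocyte list aside, were left out, 15, 39 and 230 cells remained in each set. Between these high and low sets 742 of 5487 genes passed, 552 higher and 190 lower in the high set. All 4 tested class II chaperones were still higher, as were 7 of 14 costimulatory and 8 of 22 inflammatory genes, and 12 of 19 glycolytic genes were lower. Class I genes were higher for 5 of 20 tested and type I interferon genes for 2 of 9. Of the cycling list 11 genes could be tested and 0 were lower by edgeR, with 4 lower at an unadjusted p under 0.05. The difference in cycling genes was thus not called among these fewer cells. The limit is in raw UMIs, which deep cells reach more readily, and the part of depth and of the smaller sums was not tested. The resident list then had 5 of 13 genes lower and 1 higher, and no dendritic cell gene could be tested.

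Outside the lists, the genes that changed most included C-type lectins and receptors of myeloid cells. Mgl2, a galactose-binding lectin of alternatively activated macrophages and dendritic cells, stood at 52.9, 75 and 31.6 CPM in the high, 16.7, 43.0 and 16.1 in the middle and 3.77, 7.02 and 5.4 in the low sets (log2 3.32 ± 0.23, adjusted p = 8.2e-09). Dcstamp, a protein of cell fusion, stood at 494, 644 and 521 against 161, 167 and 122 (2.17 ± 0.12, adjusted p = 1.0e-09). High and low sets did not overlap for either gene. Plbd1, a phospholipase-like protein, was higher by 3.12 ± 0.23, the lectin gene Clec4b1 by 3.93 ± 0.69, Traf1, an adaptor of TNF receptors, by 2.20 ± 0.14, the sialyltransferase gene St8sia4 by 2.20 ± 0.14 and Rab11fip1, of recycling endosomes, by 2.14 ± 0.24. The lower genes were Hal, histidine ammonia-lyase, at -2.45 ± 0.50, with 6.96, 9.59 and 13 CPM against 122, 43.7 and 79.7 and its call lost under 9 of 24 alternatives, Plp2 at -1.77 ± 0.18, the secreted kinase gene Fam20c at -1.68 ± 0.18 and Pdpn, podoplanin, at -1.63 ± 0.18. The remaining 4 named by the rule, Smc2, Hist1h2bc, H2afx and Atad2, encode proteins of chromatin and chromosomes and changed by -1.59 to -1.41. With cycling cells left out Smc2 was at 0.03, H2afx at -0.17 (adjusted p = 0.826) and Atad2 at -0.50 (adjusted p = 0.123), while Hist1h2bc kept its call. The call of H2afx was lost under 5 of 24 alternatives.

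**Figure D5:**
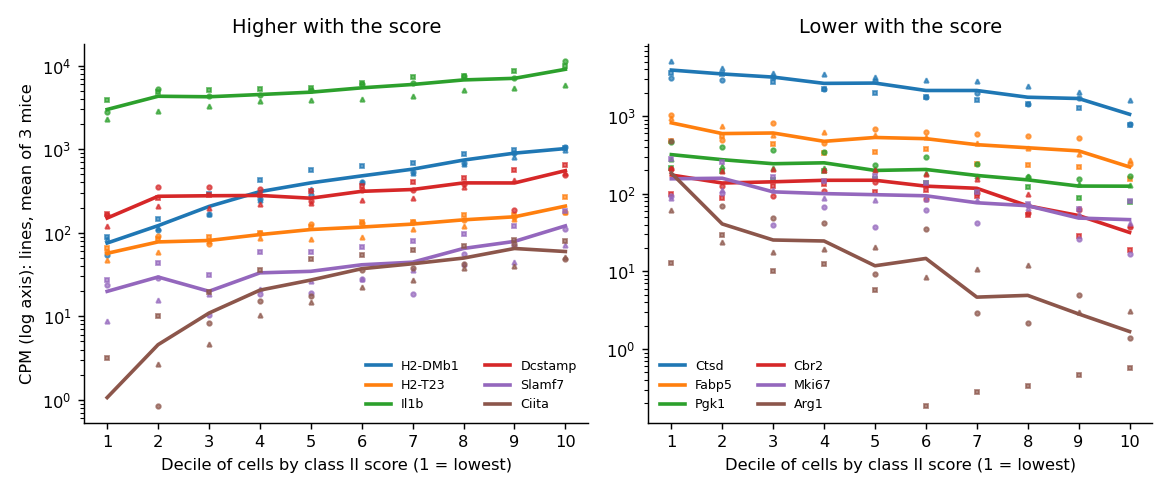
CPM on a log axis against deciles of the cells by class II score (1 is the lowest) for genes higher (left) and lower (right) with the score. Lines are means of the 3 mice, small symbols single mice, and values of 0 are not drawn. H2-DMb1 goes from 75.3 to 1017 CPM and Ctsd from 3927.5 to 1058.6 over the deciles, and the line of Arg1 falls most between the first 2.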

How the data were processed

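The values are UMI counts per gene and barcode, made by the authors with Cell Ranger 3.0.2 on build mm10, per the submitters' processing notes, and deposited for barcodes already called as cells. Which annotation was counted is not stated in the labels. The 3 libraries held 12454677, 41097369 and 86178419 UMIs in 1074, 2470 and 7429 barcodes. Gene positions were taken from GENCODE M21 by gene ID, and 35 symbols shared by gene IDs were kept apart.

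Cells were ranked within each mouse, with ties in order of barcode. The raw counts of the high, middle and low sets were summed per mouse, which gives 9 sums, and compared by the robust quasi-likelihood F test of edgeR 4.0.16 (R 4.3.3; 2-sided, TMM scaling, genes kept by filterByExpr) with mouse and set as terms and Benjamini-Hochberg adjustment over the 9700 genes tested. P-values are from that fit unless another setting is named, and rest on 3 mice, or on 2 where 1 was left out. The score genes and Adgre1 were left out of tests and library sizes. The SE is the size of a log2 change divided by the square root of F. Same-numbered sums come from the same animal, and their deviations from the set means correlated with r from 0.245 to 0.485 over genes.

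The members of the sets, 24 gene lists (362 genes, 360 of them analysed here) and the rules were chosen with earlier results of these data known. Named genes were all class II chaperones and regulators, in other lists the 4 largest passing changes in each direction with 1 sign in 3 mice and at least 20 CPM in the higher set, outside lists the 8 largest at 50 CPM, and defining markers. Some further list members are named to describe a list and were chosen after their values were seen. Some genes of the lists are not reported here. Scrublet in scanpy 1.11.5 called 11 doublets, so doublets were left out, by rank of its score, only in an alternative. Those alternatives include DESeq2 1.42.0. Data simulated for high against low sets held 9583 genes. Of these 66, 67 and 67 were changed by log2 0.5, 1 and 2 in either direction, in the high sums alone. The test called 27.3%, 82.1% and 97.0% of them, and 16 of 154 calls (10.4%) were false, against a nominal 5%. In the data 25.4% of genes passed, a far larger share, and the false share there was not tested. Of the deposited files only the count matrices, with their gene and barcode names, were used; promoter windows came from RefSeq.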

Additional observations from a re-analysis of the deposited data

How the results depend on the processing

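Counts of genes that passed are given for high against low, high against middle and middle against low sets, which were 2465, 972 and 589. Without the replicate block for the mouse they were 672, 38 and 3, although same-numbered sums come from 1 animal. With cells bearing markers of other types left out they were 742, 119 and 43, with cycling cells left out 1537, 521 and 191, with cells thinned to 3000 UMIs 1021, 345 and 167, and with sets and tests on separate UMIs 1572, 676 and 364. Sets within classes of like depth gave 223 and 204 for the comparisons with the middle set. All deciles in 1 fit gave 1794 and 1439 for these, the 5% ends gave 218 for middle against low, the DESeq2 Wald test 364 and no filter on low counts 999. Library sizes alone, added after seeing the data, gave 1869 for high against middle, with 322 higher and 1547 lower. Leaving out 1 mouse gave 1326 to 2225, 432 to 821 and 233 to 463, with the lowest for high against low without mouse 3. Where cells, mice or UMIs were left out, the sums were smaller; other causes were not tested.

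Of 106 named genes in the fit 93 passed between high and low sets, against 25.4% of all genes. Most were named because they passed with 1 sign in 3 mice. That share, and the rarity of changes of direction, are therefore largely set by the rule. Changes of direction were found for Ctsz (-0.0330 with library sizes alone and -0.0339 with cells of other types left out), Smc2 (0.0268) and Mki67 (1.06), the last 2 with cycling cells left out. Mki67 is in the list whose UMIs set that limit. Between high and low sets H2-DMa, H2-DMb1 and Ciita passed under every alternative run. Depth limits what single cells show, since the high sets had the fewest UMIs, and 3 mice limit every p-value.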
